A study of Equus caballus with 45 samples.

Results

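Mesenchymal stromal cells (MSC) activated through the STING pathway were set against the same donors' MSC activated through TLR3, gene by gene across the whole transcriptome. The members were the 6 MSC samples whose labels carry 1 of these 2 agonists, 3 with the STING agonist and 3 with the TLR3 agonist, out of 45 samples in the series. Each activated sample of a donor was paired with the other activated sample of that donor through the donor name in the labels, and the donors are called PC, 99 and 92 as there. The study activated equine MSC to compare what their secreted factors do to joint cells. MSC came from bone marrow of the sternum of 3 healthy horses aged 3 to 4 years, 2 females and 1 male, and were used at passage 2 to 3. The TLR3 agonist was poly I:C, a synthetic double-stranded RNA, and the STING agonist was 2′3′-cGAMP, the cyclic dinucleotide that cells make when they sense DNA in the cytosol. Cells were exposed to an agonist for 2 h, washed and cultured for 24 h more before they were lysed for RNA. The sources differ on whether the cells were activated on plates or in suspension and on whether they were replated after the wash. The labels give the dose of both agonists as 10 ng/ml and the study's methods as 10 μg/mL, so the dose is uncertain by this factor, but it was the same for both agonists in either source. Untreated MSC of the same 3 donors served as the reference level. There was 1 library for each donor and condition. With the donor as a block in the test, p-values set a difference against how far such differences varied over 3 donors. The untreated libraries entered this estimate.

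TLR3 lies in endosomes, binds double-stranded RNA and signals through the adaptor TICAM1. STING lies in the endoplasmic reticulum, binds the cyclic dinucleotide made by the DNA sensor cGAS, and recruits the kinase TBK1. Both routes lead to the transcription factor IRF3, to type I interferon and, through interferon receptors, to a large set of interferon-stimulated genes that block viral replication, present antigen and attract leukocytes. In MSC, such activation is used to raise their immunomodulatory properties before treatment. The question here was where the programs set off by both agonists differ 24 h after the agonist was removed.

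The 6 libraries held 28570632 to 50109139 counts on protein coding genes, and the 10 most abundant genes took 10.3% to 14.1% of the counts of a library. Levels are given as CPM, that is counts divided by the library size after TMM scaling over the 12 MSC libraries, always in the donor order PC, 99 and 92. At 3 counts or fewer, equal to 0.0599 to 0.105 CPM in these libraries, a level was read as undetected, a limit that covers counting error only. The marker genes fitted the label: THY1 ran from 263 to 829 CPM, ENG from 304 to 449 CPM, CD44 from 170 to 533 CPM and NT5E from 5.63 to 23.4 CPM over the 6 libraries. The leukocyte marker PTPRC reached at most 0.242 CPM, CD14 at most 0.633 CPM and the endothelial marker CDH5 at most 0.313 CPM, while PECAM1, also an endothelial marker, ran from 26.1 to 53.4 CPM. The 20 leukocyte and macrophage markers summed to 26.0 to 28.6 CPM with the TLR3 agonist and 22.8 to 28.02 CPM with the STING agonist, 15 of them stayed below 1 CPM in every one of the 6 libraries, and CD163 and AIF1 were at 0. In bulk RNA, fewer cells of a responding type and less RNA per cell cannot be told apart.

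One library stood apart before any comparison was made. In donor 92, the library labelled TLR3 agonist carried interferon-stimulated genes at the level of untreated MSC. Over 63 antiviral effector genes, the mean log2(CPM + 1) in untreated MSC was 3.44, 3.75 and 3.56 in donors PC, 99 and 92. With the TLR3 agonist it was 7.07, 6.23 and 3.49, and with the STING agonist it was 6.81, 6.82 and 6.27. The TLR3 library thus lay 3.63 and 2.48 above the untreated library in donors PC and 99, but in donor 92 the difference was -0.0755. All 63 genes of that library were within 1 log2 unit of the untreated library of donor 92, against 15 of 63 when it was set against the STING library. The STING libraries lay 3.37, 3.07 and 2.71 above the untreated libraries. Libraries labelled CpG were within 0.0739 of the untreated level in all 3 donors and entered no comparison here. The labels and the study's text give no difference in the handling of donor 92, and whether its TLR3 library reflects the cells, the activation or the label was not tested. The results that rest most on this library are therefore also given without it.

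**Figure D1:**
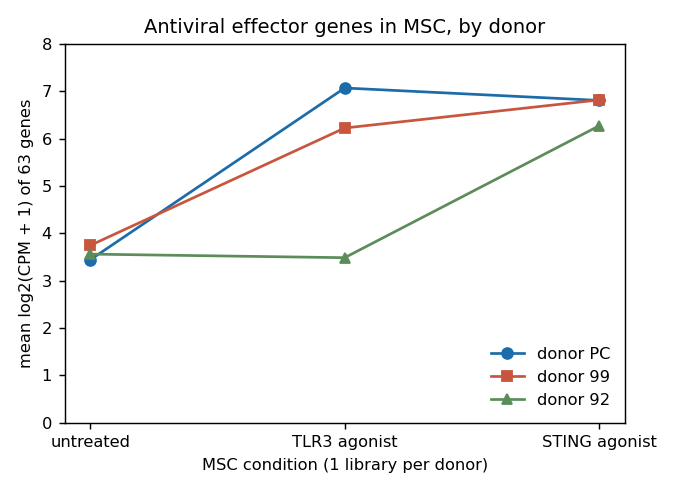
Mean log2(CPM + 1) of 63 antiviral effector genes (y axis) in untreated, TLR3 agonist and STING agonist MSC (x axis), with 1 line per donor and 1 library per point. With the STING agonist the 3 donors lay between 6.27 and 6.82, while with the TLR3 agonist donors PC and 99 lay at 7.07 and 6.23 and donor 92 at 3.49, next to its untreated level of 3.56.

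Across all genes, no difference between the agonists passed the test once p-values were adjusted. Of 14872 genes tested with edgeR's quasi-likelihood test and the donor as a block, 0 had a Benjamini-Hochberg adjusted p under 0.05 (0% of genes tested). The lowest adjusted p by edgeR was 0.433, for DRA, and the next rounded to 1.00. No single gene named below other than DRA thus had an edgeR adjusted p that rounded to less than 1.00, and each is given with its log2 fold change and SE. An unadjusted p of at most 0.05 was reached by 384 genes, 194 higher with the STING agonist (1.3% of genes tested) and 190 lower (1.28%). DESeq2 with the same donor block gave 10 genes with an adjusted p under 0.05, 5 higher with STING (0.0336%) and 5 lower (0.0336%). The 5 higher genes were DRA, LAG3, SRGN, CCL2 and CALHM5. Of the 5 lower ones, KLK10 had counts in all 6 libraries, and the others (MAP7, SBK2, TMPRSS6 and 1 gene without a symbol) had 0 counts in the 3 STING libraries and at most 16 counts in any TLR3 library.

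The thresholds of the study, p without adjustment up to 0.05 and fold changes from 2 upward on the log2 scale, were passed by 21 genes higher with STING (0.141%) and 17 lower (0.114%). In 26 of these 38 genes, all libraries of 1 agonist held 3 counts or fewer, so that their fold changes depend on the handling of zeros. DRA, LAG3 and CD74 were the only genes with a symbol that passed these thresholds at a mean of at least 1 CPM and in the same direction in all 3 donors. Counted by direction, 1894 genes were higher with the STING agonist in all 3 donors (12.7% of genes tested) and 1992 were lower in all 3 (13.4%). A difference of at least 1 on the log2(CPM + 1) scale in all 3 donors was found for 2 genes, LAG3 and MOXD1, both higher with STING (0.0134%), and for no gene in the other direction.

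The donors differed in how far their agonists were apart. In donor PC only 5 genes were higher with STING by at least 1 log2 unit and 6 were lower. In donor 99 these counts were 103 and 42, and in donor 92 they were 158 and 8. Antiviral effectors made up 0 of the 5 genes in donor PC, 9 of the 103 in donor 99 and 48 of the 158 in donor 92. They were 63 of all 14872 genes tested, and in donor 92 the TLR3 library held them at the untreated level.

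Genes of MHC class II stood at the head of the genes higher with the STING agonist. DRA encodes the alpha chain of the MHC class II molecule that presents peptides to CD4 T cells. It was at 0.121, 0.203 and 0.0554 CPM with the TLR3 agonist, on 6, 9 and 2 counts, and at 0.967, 6.21 and 8.60 CPM with the STING agonist, on 34, 242 and 258 counts. The 2 groups did not overlap, but the share of all genes without overlap was not counted, here or for the genes below. These genes were picked by their p or by their smallest difference over donors, so a lack of overlap is no further evidence. Untreated MSC had 0.0324, 0.0282 and 0.145 CPM of DRA. DRA was thus at or below 9 counts also in the TLR3 libraries of donors PC and 99, which carried the antiviral genes. The log2 fold change was 4.96 ± 0.63 (SE, adjusted p = 0.433 by edgeR), and 4.10 without the TLR3 library of donor 92.

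CD74, the invariant chain that accompanies MHC class II molecules to the endosome, had the largest fold change of the named genes. It was at 0.342, 0.0904 and 0 CPM with the TLR3 agonist and at 1.62, 7.78 and 20.6 CPM with the STING agonist, with no overlap. The log2 fold change was 5.31 ± 1.11, and 3.91 without the TLR3 library of donor 92. Its unadjusted p was 0.0011 by edgeR and 0.035 by DESeq2 with the donor block, and CD74 was not among the 10 genes called by DESeq2. HLA-DMB, a subunit of the peptide loading factor of MHC class II, was at 0.584, 1.81 and 1.05 CPM with TLR3 and at 1.39, 3.62 and 1.57 CPM with STING (log2 fold change 0.97 ± 0.38, and 0.86 without the TLR3 library of donor 92). For this gene the groups overlapped and the difference held within each donor. Cathepsin S (CTSS), which cuts the invariant chain, had a log2 fold change of 0.67 ± 0.39, or 0.29 without that library, and was at 190 and 162 CPM with TLR3 in donors PC and 99 against 206 and 306 CPM with STING. CIITA, the master regulator of MHC class II transcription, was at or near 0 in all 6 libraries, with at most 0.10 CPM. The gene lists used here were written with earlier results of these data known, so list counts and medians are no independent evidence of direction. Over the MHC class II list, 9 of 13 genes tested were higher with STING, and their median was 0.26 where that of all 14872 genes was 0.00049. Of these genes, 3 were higher and 0 lower at p of at most 0.05, beside 1.3% and 1.28% of all genes, and the mean difference by donor was 0.24, 0.58 and 0.85.

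**Figure D2:**
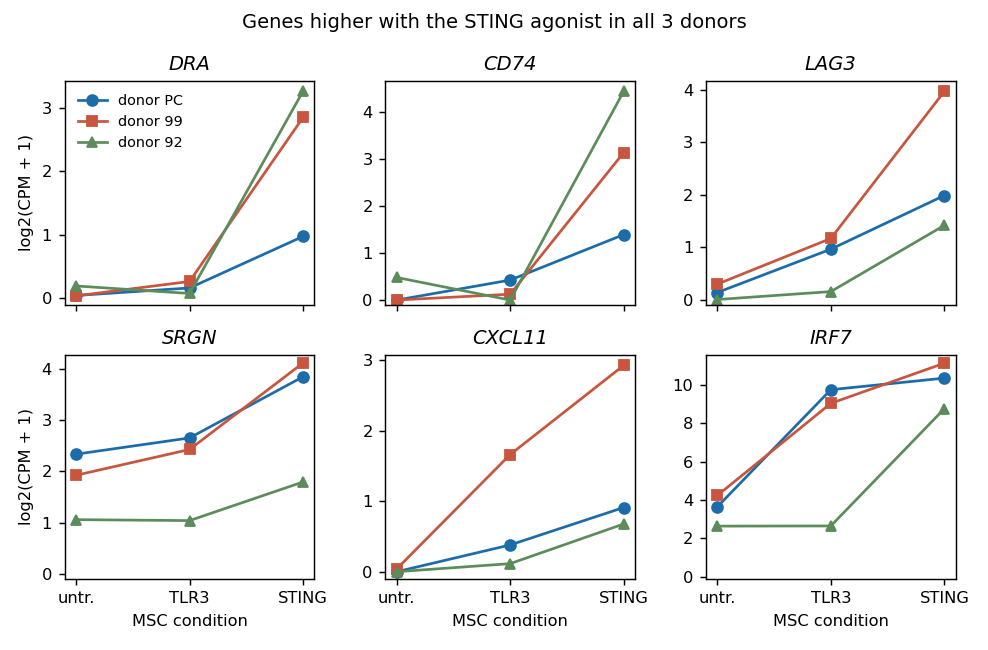
log2(CPM + 1) of DRA, CD74, LAG3, SRGN, CXCL11 and IRF7 (y axis, scaled per gene) in untreated, TLR3 agonist and STING agonist MSC (x axis), with 1 line per donor. In every panel the STING point of a donor lies above its TLR3 point, while DRA and CD74 stay below 0.5 in all TLR3 libraries.

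LAG3, an inhibitory receptor of lymphocytes that binds MHC class II, had the second smallest p among genes higher with the STING agonist. Its level was 0.0972, 0.226 and 0 CPM in untreated MSC, 0.946, 1.24 and 0.111 CPM with the TLR3 agonist, and 2.96, 14.7 and 1.67 CPM with the STING agonist. Every STING library was above every TLR3 library. The log2 fold change was 2.89 ± 0.46, 2.701 without the TLR3 library of donor 92, and the differences within donors were 1.02, 2.81 and 1.26 on the log2(CPM + 1) scale. Among the other immunomodulatory genes of MSC, CD274, the ligand of the checkpoint receptor PD-1, was at 2.36, 0.158 and 0.0832 CPM with TLR3 and 1.59, 0.539 and 0.80 CPM with STING, and donor PC went the other way from donors 99 and 92. ARG2, an arginase, was lower with STING in all 3 donors (67.0, 69.0 and 65.9 CPM with TLR3 against 64.8, 34.4 and 42.1 CPM with STING, log2 fold change -0.56 ± 0.17). IDO1, the tryptophan-degrading enzyme, held 7 counts over the 9 libraries of the fit and was not tested. Over the 25 genes of this list that were tested, 13 were higher and 12 lower, with a median of 0.0031, and LAG3 and ARG2 were the only ones with p of at most 0.05.

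The study names 10 genes of secreted proteins in its text from its own analysis of these cells, so they are no independent evidence of direction. In the joint fit 10 of 10 were higher with the STING agonist (median log2 fold change 0.75). Without the TLR3 library of donor 92, 7 of 10 were higher (median 0.18). In donors PC, 99 and 92, 5, 10 and 10 of them were higher, with mean differences of 0.055, 1.03 and 1.84, and 5 of 10 were higher in all 3 donors. SRGN, the proteoglycan core protein serglycin that packs chemokines and proteases in secretory granules, was at 5.30, 4.38 and 1.05 CPM with TLR3 and 13.4, 16.4 and 2.47 CPM with STING. Donor 92 was the lowest in both groups, which overlapped between donors. The log2 fold change of SRGN was 1.53 ± 0.25 and 1.51 without the TLR3 library of donor 92. SERPING1, the inhibitor of the complement protease C1, was at 181, 203 and 90.4 CPM with TLR3 and at 234, 386 and 166 CPM with STING (log2 fold change 0.71 ± 0.19, and 0.55 without that library). IL4I1, a secreted amino acid oxidase that restrains T cells, was at 22.9, 36.7 and 7.84 CPM with TLR3 and 37.1, 90.2 and 9.80 CPM with STING (log2 fold change 0.83 ± 0.28, 0.79 without it and 0.46 without the STING library of donor 99). ITGBL1 differed less, with a log2 fold change of 0.31 ± 0.15 (0.19 without the TLR3 library of donor 92), and TNFSF10, the death ligand TRAIL, had one of 0.77 ± 0.86 that became -0.0894 without the TLR3 library of donor 92.

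MOXD1, a copper-dependent monooxygenase, and GALNT15, an enzyme that starts O-linked glycosylation, were among the genes higher in all 3 donors outside the immune lists. MOXD1 was at 1.26, 2.66 and 1.66 CPM in untreated MSC, at 6.63, 9.02 and 1.91 CPM with TLR3 and at 14.3, 20.1 and 8.97 CPM with STING (log2 fold change 1.41 ± 0.33, and 1.03 without the TLR3 library of donor 92). GALNT15 was lower with TLR3 than in untreated MSC in all 3 donors, at 3.56, 1.20 and 1.08 CPM against 5.70, 1.55 and 2.16 CPM, and was at 6.69, 3.95 and 2.57 CPM with STING (log2 fold change 1.30 ± 0.27). ANGPT2, a ligand of the endothelial receptor TEK, had a log2 fold change of 1.14 ± 0.31, and RSPO3, which strengthens Wnt signalling, one of 1.37 ± 0.40. RSPO3 was at 0 in the TLR3 library of donor 92 and at 0.0333 CPM in its STING library, so this value came from donors PC and 99, and without the TLR3 library of donor 99 it was 0.84. The rule for single genes, which asked for p of at most 0.05, a difference of at least 1 on the log2 scale, a mean of at least 1 CPM and 1 direction in 3 donors, gave 12 genes higher with STING. The remaining ones were CXCL11, PRRG4 (1.70 ± 0.49), TMEM150C (1.26 ± 0.36, and 0.76 without the STING library of donor 99) and ENSECAG00000040532, which carries no symbol in the annotation used by the authors (2.67 ± 0.69, log2 fold changes with SE).

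**Figure D3:**
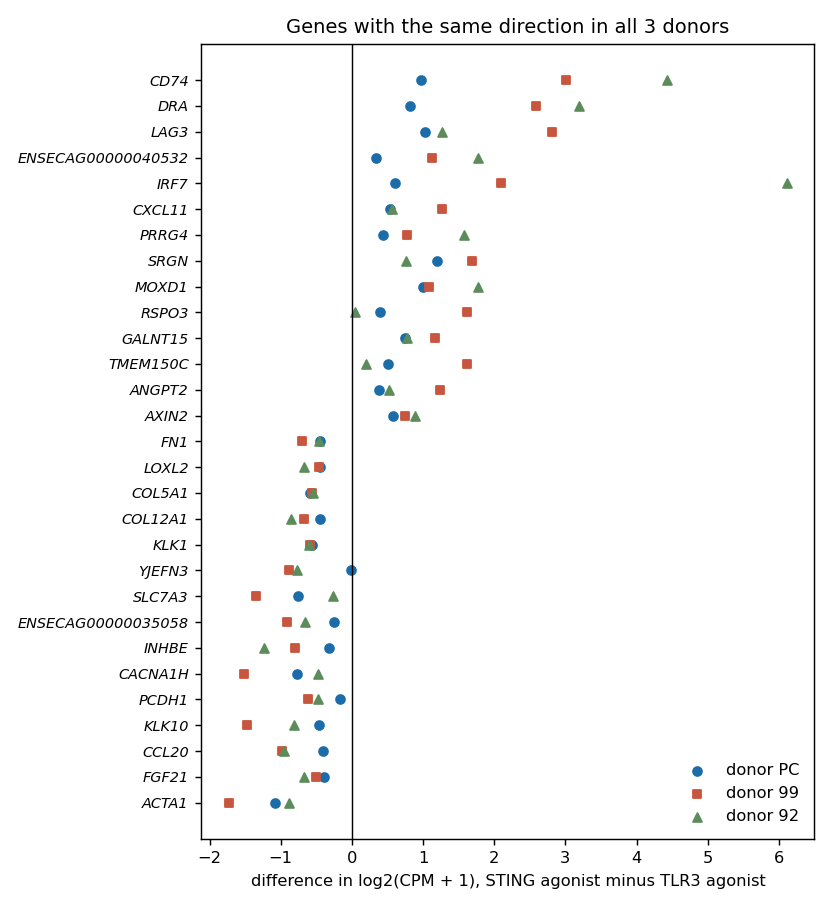
Difference in log2(CPM + 1) between the STING and the TLR3 library of each donor (x axis) for the 29 genes named by their p or by the size of their smallest difference over donors (y axis). The genes were chosen for having 1 sign in all 3 donors, and the largest difference, 6.11 for IRF7, came from donor 92.

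Chemokines and cytokines linked to interferon were higher with the STING agonist in 11 of 13 genes tested, with a median log2 fold change of 0.63. Of these, 5 had p of at most 0.05, all higher (CXCL11, IL4I1, IL7, CCL5 and CXCL16), beside 1.3% of all genes higher and 1.28% lower. Without the TLR3 library of donor 92, 8 of 13 were higher and the median was 0.18. CXCL11, a ligand of the chemokine receptor CXCR3, was at 0.302, 2.17 and 0.0832 CPM with TLR3 and at 0.882, 6.62 and 0.60 CPM with STING (log2 fold change 1.80 ± 0.35, and 1.58 without the TLR3 library of donor 92). CXCL10, a further ligand of CXCR3, had mixed signs: donor PC had 155 CPM with TLR3 and 70.3 CPM with STING, donor 99 had 54.9 and 139 CPM, and donor 92 had 0.0277 and 2.03 CPM. Its log2 fold change was 0.63 ± 0.79, and -0.07 without the TLR3 library of donor 92. CCL5, which draws T cells and monocytes, was at 36.4, 26.8 and 0.166 CPM with TLR3 and 45.0, 71.4 and 5.50 CPM with STING (log2 fold change 1.54 ± 0.60, 0.81 without the TLR3 and 1.02 without the STING library of donor 92). IL7, a growth factor of lymphocytes, was below the untreated level (0.454, 2.26 and 0.332 CPM) with TLR3 in all 3 donors at 0.141, 1.36 and 0.222 CPM, and was at 0.313, 3.44 and 0.267 CPM with STING.

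NF-kB-linked chemokines and cytokines split in direction. In this list 12 of 17 genes tested were higher with STING and 5 lower (median 0.44), with 4 higher (CCL2, CCL11, IL12A and TSLP) and 2 lower (CCL20 and CXCL8) at p of at most 0.05, beside 1.3% and 1.28% of all genes. CXCL8, which attracts neutrophils, was below 1 CPM in all 6 libraries, at 0.242, 0.249 and 0.637 CPM with TLR3 and 0.142, 0 and 0.233 CPM with STING. CCL2, the main monocyte chemokine, was at 475, 429 and 50.1 CPM with TLR3 and 582, 680 and 77.4 CPM with STING (log2 fold change 0.53 ± 0.12). The eosinophil chemokine CCL11 was at 24.3, 16.4 and 4.74 CPM with TLR3 and 32.5, 39.4 and 6.27 CPM with STING (0.72 ± 0.22, and 0.42 without the STING library of donor 99). CCL20, the ligand of CCR6, went the other way, at 2.24, 10.0 and 1.54 CPM in untreated MSC, 1.53, 3.91 and 1.33 CPM with TLR3 and 0.91, 1.49 and 0.20 CPM with STING. In each donor its level was highest in untreated MSC and lowest with STING. The log2 fold change of CCL20 between the agonists was -1.46 ± 0.39 and -1.18 without the TLR3 library of donor 92.

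The sensors themselves showed no difference that passed p of at most 0.05. STING1, the receptor of cGAMP, was higher with the STING agonist in each donor by 0.38, 0.32 and 0.27 on the log2(CPM + 1) scale (11.8, 16.2 and 17.8 CPM with TLR3 against 15.6, 20.4 and 21.7 CPM with STING, log2 fold change 0.35 ± 0.19). TLR3 was at 1.07, 3.11 and 1.35 CPM in untreated MSC, at 42.2, 17.1 and 0.942 CPM with its own agonist and at 27.4, 32.1 and 19.4 CPM with the STING agonist. TLR3 was thus higher under its own agonist in donor PC and lower in donors 99 and 92 (log2 fold change 0.95 ± 0.83, and 0.0088 without the TLR3 library of donor 92). CGAS, the DNA sensor upstream of STING, was at 20.8, 11.8 and 2.83 CPM with TLR3 and 13.996, 16.2 and 12.9 CPM with STING. ZBP1, a sensor of nucleic acids in the Z form, was at 128, 64.4 and 0 CPM with TLR3 and 80.4, 128 and 45.5 CPM with STING. DDX58, which encodes the RNA helicase RIG-I, was at 370, 104 and 11.4 CPM against 256, 216 and 93.4 CPM. In each of these 4 genes (TLR3, CGAS, ZBP1 and DDX58) donor PC was higher with TLR3 and donors 99 and 92 were higher with STING. Of 16 genes of RNA and TLR3 sensing, 11 were higher with STING (median 0.065), and of 19 genes of DNA and cyclic dinucleotide sensing 10 were higher (median 0.0049).

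Interferon transcripts themselves were barely detected at this time and depth. IFNB1 held 2 counts over the 9 libraries, IFNG, IFNA1, IFND1 and IFND2 had 0 counts in the 6 libraries, and IFNE and IFNK reached at most 0.171 and 0.139 CPM. Among the transcription factors, IRF3, which both routes activate by phosphorylation, was at 90.5, 109 and 76.3 CPM with TLR3 and 86.8, 97.6 and 76.0 CPM with STING (log2 fold change -0.07 ± 0.11). IRF7, the interferon-inducible factor that drives interferon alpha genes, was the exception of its list. It was at 862, 526 and 5.29 CPM with TLR3 and 1310, 2247 and 433 CPM with STING, so that donors PC and 99 were also higher with STING, by 0.60 and 2.09 on the log2(CPM + 1) scale. The log2 fold change of IRF7 was 2.17 ± 0.96 and missed p of at most 0.05, and without the TLR3 library of donor 92 it was 1.22, and without that of donor PC 3.53. Of 18 kinases and transcription factors of the pathway, 11 were higher (median 0.15) and 0 had p of at most 0.05 in either direction.

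Antiviral effectors were the largest group of the interferon response, and their sign between the agonists depended on the donor. In the joint fit 60 of 63 genes were higher with STING, with a median log2 fold change of 0.73, but 0 of 63 reached p of at most 0.05. Without the TLR3 library of donor 92, 39 of 63 were higher and the median was 0.045. In donor PC, 55 of 63 were lower with STING and 8 higher (median -0.27 on the log2(CPM + 1) scale, from -0.80 to 0.38). In donor 99, 59 were higher and 4 lower (median 0.58), and in donor 92, 60 were higher and 3 lower (median 2.63, up to 7.73). MX1, a GTPase that blocks influenza and other viruses, was at 635, 513 and 3.66 CPM with TLR3 and 528, 928 and 660 CPM with STING. ISG15, the ubiquitin-like modifier, was at 1994, 1360 and 9.31 CPM against 1463, 2323 and 722 CPM. IFIT3, which binds viral RNA as part of a complex, was at 741, 294 and 0.166 CPM against 665, 572 and 82.0 CPM. RSAD2 (viperin) was at 65.7, 6.58 and 0.637 CPM against 57.0, 31.4 and 21.7 CPM, a within-donor difference of -0.20, 2.10 and 3.79. The IFIT and OAS families are made of similar genes, so reads that match several members may be miscounted.

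Of the 63 antiviral effectors, 6 were higher with STING in all 3 donors (beside 12.7% of all genes) and 1 was lower (beside 13.4%). One direction in all donors was thus no more frequent in this list than over all genes, and the genes below are given as single cases. BST2 (tetherin), which holds budding virions on the cell, was at 516, 358 and 0.637 CPM with TLR3 and 672, 933 and 120 CPM with STING (log2 fold change 2.11 ± 1.06, 0.94 without the TLR3 and 1.25 without the STING library of donor 92, and 3.31 without the TLR3 library of donor PC). IFI6 was at 4056, 4252 and 98.8 CPM against 4521, 7031 and 2344 CPM, and IFI27 at 1996, 3736 and 174 CPM against 2180, 4206 and 2642 CPM. Without the TLR3 library of donor 92, the log2 fold change of IFI6 went from 1.13 to 0.29 and that of IFI27 from 0.75 to -0.0559. PLSCR1 differed by a similar small amount in each donor (0.27, 0.35 and 0.39) and was near its untreated level under both agonists (11.6, 12.4 and 6.21 CPM with TLR3, 14.2, 16.1 and 8.43 CPM with STING, 15.4, 15.1 and 5.79 CPM untreated).

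Antigen presentation by MHC class I had the same order of donors as the antiviral genes. In this list 14 of 16 genes were higher with STING, with a median of 0.37, and the mean difference by donor was -0.11, 0.25 and 0.98. TAP1, a subunit of the peptide transporter into the endoplasmic reticulum, was the only one with p of at most 0.05, at 185, 80.6 and 37.0 CPM with TLR3 and 156, 133 and 84.0 CPM with STING (log2 fold change 0.54 ± 0.23, 0.27 without the TLR3 library of donor 92 and 0.88 without that of donor PC). B2M, the light chain of MHC class I, was at 3618, 3541 and 346 CPM against 4105, 6319 and 1816 CPM. Without the TLR3 library of donor 92, the median of the class I list was 0.0098, while that of the class II list was 0.22. Complement genes were higher with STING in 11 of 13 (median 0.43, and 0.21 without that library), with SERPING1 the only one at p of at most 0.05. Complement factor I (CFI) was at 2.30, 4.45 and 1.66 CPM with TLR3 and 3.24, 5.21 and 2.60 CPM with STING, and clusterin (CLU) at 2130, 2519 and 1614 CPM against 2441, 2792 and 1864 CPM.

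**Figure D4:**
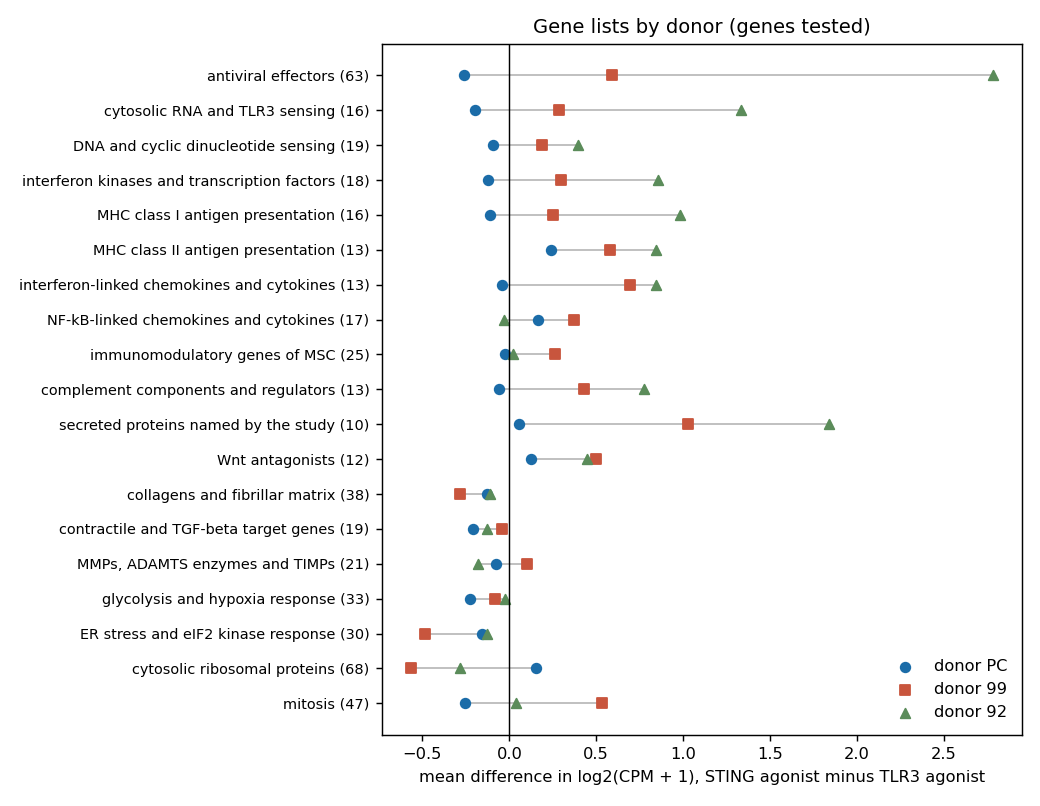
Mean difference in log2(CPM + 1) between the STING and TLR3 libraries of a donor (x axis) for 19 gene lists (y axis, genes tested in brackets), with 1 marker per donor and a grey line over their range. The antiviral list spread from -0.26 in donor PC to 2.79 in donor 92, while the matrix list and the list of the endoplasmic reticulum (ER) stress response were below 0 in all 3 donors.

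Antagonists and negative feedback genes of Wnt signalling were higher with the STING agonist in 11 of 12 genes tested in the joint fit (median log2 fold change 0.76). Of these, 4 had p of at most 0.05 (AXIN2, SFRP1, NOTUM and DKK1), all higher, beside 1.3% of all genes. Of the 16 genes of the list, 7 stayed below 1 CPM in all 6 libraries. AXIN2, a scaffold of the complex that degrades beta-catenin and itself a Wnt target, was at 5.12, 1.54 and 2.61 CPM with TLR3 and 8.08, 3.23 and 5.67 CPM with STING (0.93 ± 0.26). NOTUM, an enzyme that removes the lipid from Wnt proteins, was at 25.4, 9.51 and 15.02 CPM with TLR3 and 33.6, 47.6 and 24.0 CPM with STING (1.18 ± 0.45, and 0.53 without the STING library of donor 99). SFRP1, which binds Wnt proteins outside the cell, was at 20.2, 2.96 and 22.6 CPM with TLR3 and 19.9, 9.29 and 41.1 CPM with STING, level in donor PC and higher in the other two. DKK3 was level in the joint fit (0.07 ± 0.14). The mean difference of the list was 0.12, 0.50 and 0.45 by donor, and 11 of 12 genes were still higher without the TLR3 library of donor 92 (median 0.53). In donors PC, 99 and 92, 7, 8 and 10 of the 12 genes were higher. In all 3 donors 4 were higher and 1 was lower, beside 12.7% and 13.4% of all genes.

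Genes of collagens and fibrillar matrix were lower with the STING agonist in 28 of 38 genes tested, with a median log2 fold change of -0.23. At p of at most 0.05, 7 were lower (LOXL2, COL5A1, COL6A3, FN1, FBN1, BGN and COL18A1) and 1 was higher (COL8A1), beside 1.28% and 1.3% of all genes, and 22 of 38 were lower in all 3 donors, beside 13.4% of all genes. COL5A1, a chain of the type V collagen that nucleates fibrils, was at 7127, 6149 and 4916 CPM with TLR3 and 4727, 4163 and 3363 CPM with STING, with no overlap (log2 fold change -0.56 ± 0.21, and -0.42 without the TLR3 library of donor 92). Its differences within donors were -0.59, -0.56 and -0.55. LOXL2, a lysyl oxidase that crosslinks collagen, was at 1049, 941 and 504 CPM against 767, 686 and 316 CPM (-0.53 ± 0.13). Fibronectin (FN1) was at 9973, 7567 and 9222 CPM with TLR3 and 7316, 4631 and 6686 CPM with STING, again without overlap (-0.53 ± 0.22). Without the TLR3 library of donor 92 the log2 fold change of FN1 was -0.39. COL6A3 had a log2 fold change of -0.41 ± 0.16, COL12A1 one of -0.67 ± 0.33 and COL1A1 one of -0.42 ± 0.21. The value of COL12A1 was -0.30 without the TLR3 library of donor 92, and that of COL1A1 was -0.18 without the STING library of donor 99 and -0.64 without that of donor 92. Without the TLR3 library of donor 92, 27 of 38 genes were lower (median -0.21), and without the STING library of donor 99, 26 of 38 were lower with a median of -0.0597.

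Contractile and TGF-beta target genes were lower in 15 of 19 (median -0.14), among them ACTG2, smooth muscle gamma actin, at 628, 181 and 2529 CPM with TLR3 and 536, 136 and 1678 CPM with STING (-0.40 ± 0.13). Of 21 metalloproteinases, ADAMTS enzymes and their inhibitors, 14 were lower (median -0.21), with a mean difference by donor of -0.077, 0.10 and -0.18. MMP9 and MMP19 were lower and ADAMTS1 higher at p of at most 0.05, beside 1.28% and 1.3% of all genes. Without the TLR3 library of donor 92, 9 of the 21 were higher and the median was -0.053. MMP9, a gelatinase, was at 130, 124 and 51.6 CPM against 88.5, 93.7 and 44.3 CPM (-0.40 ± 0.13), while the gelatinase MMP2 was 0.18 ± 0.12 higher. Of 33 genes of glycolysis and the hypoxia response, 25 were lower (median -0.12) and 16 were lower in all 3 donors, beside 13.4% of all genes. CA9, a carbonic anhydrase induced by low oxygen, was at 83.5, 60.5 and 20.3 CPM with TLR3 and 52.0, 45.4 and 14.5 CPM with STING (-0.52 ± 0.15), and the glycolytic enzyme ENO1 at 4018, 5644 and 5040 CPM against 3190, 3872 and 4500 CPM (-0.35 ± 0.13).

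The stress response of the endoplasmic reticulum and the eIF2 kinases had a uniform sign in the joint fit. All 30 of its genes tested were lower with the STING agonist (median log2 fold change -0.23). In each of the 3 donors 16 of 30 were lower, beside 13.4% of all genes. As with the other lists, these genes were chosen with earlier results of these data known, so the shared sign is no independent evidence. With library totals in place of TMM, which moved the median of all genes to 0.066, 4 of the 30 were higher and the median was -0.16. At p of at most 0.05, 6 were lower and 0 higher, beside 1.28% and 1.3% of all genes. Asparagine synthetase (ASNS), a target of the factor ATF4, was at 263, 363 and 292 CPM with TLR3 and 231, 158 and 247 CPM with STING, and donor 99 had the largest difference (log2 fold change -0.53 ± 0.20, -0.33 without the TLR3 and -0.24 without the STING library of donor 99). ATF4 itself was at 1013, 1764 and 929 CPM against 908, 1116 and 869 CPM (-0.31 ± 0.15, -0.14 without the TLR3 and -0.20 without the STING library of donor 99). FGF21, a hormone that stressed cells release, was at 0.644, 0.452 and 3.19 CPM with TLR3 and 0.256, 0.0257 and 1.63 CPM with STING (-1.47 ± 0.46). The chaperone HSPA5, the main marker of the unfolded protein response, differed little (-0.13 ± 0.12). The mean difference of the list was -0.16, -0.48 and -0.13 by donor, and without the STING library of donor 99, 23 of 30 genes were lower (median -0.15).

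**Figure D5:**
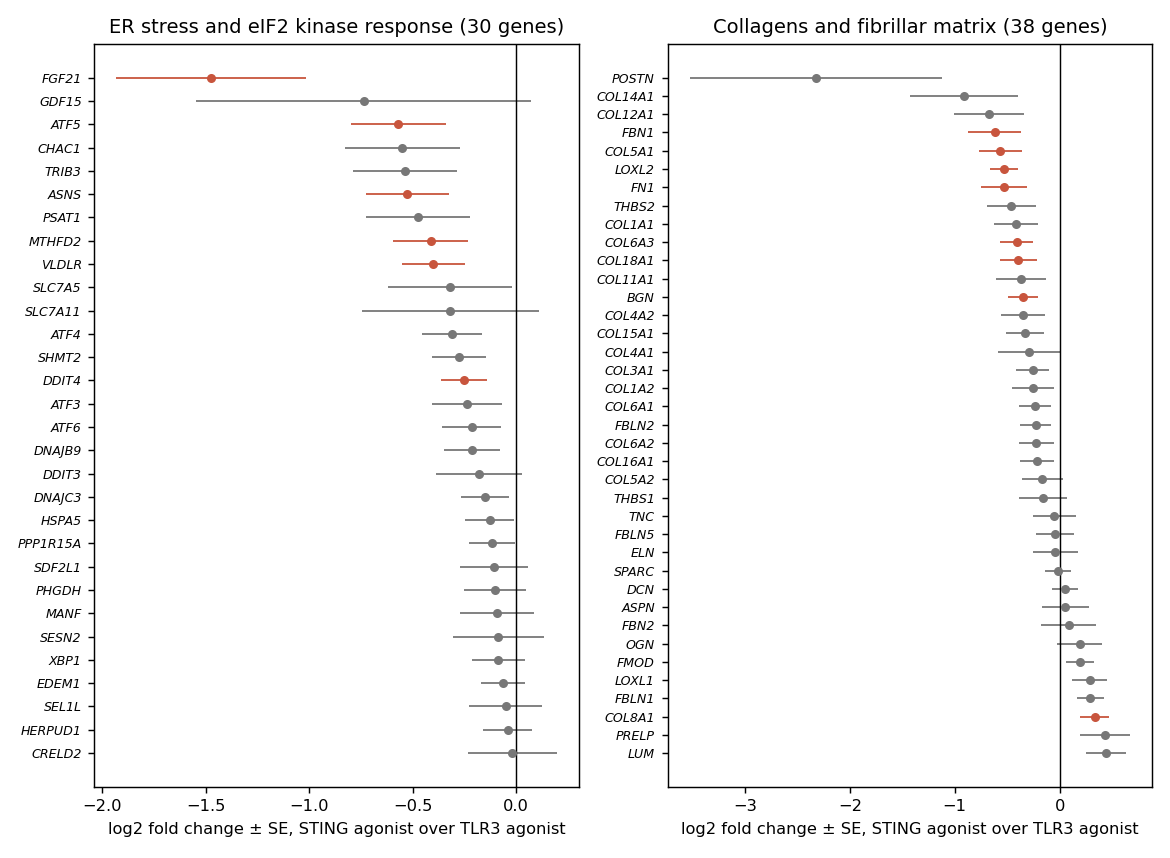
log2 fold change of the STING over the TLR3 agonist from edgeR (x axis, bars show 1 SE) for 30 genes of the ER stress and eIF2 kinase response (left) and 38 genes of collagens and fibrillar matrix (right), with genes at p of at most 0.05 in red. All 30 stress genes lie below 0, and 28 of the 38 matrix genes do.

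Among single genes lower with the STING agonist, the rule gave 9, and KLK10 had the smallest p. KLK10, a secreted serine protease of the kallikrein family, was at 1.71, 8.99 and 1.94 CPM with TLR3 and at 0.967, 2.59 and 0.667 CPM with STING (log2 fold change -1.40 ± 0.27, and -1.33 without the TLR3 library of donor 92). In donor 99 its TLR3 level was close to the untreated one of 9.07 CPM. KLK1, tissue kallikrein, which was named for its smallest difference over donors, was at 3.24, 2.49 and 2.08 CPM against 1.88, 1.31 and 1.03 CPM, without overlap between the groups (-0.89 ± 0.24). Kallikreins are similar to each other, so reads that match several of them may be miscounted. ACTA1, the skeletal muscle alpha actin, was at 3.89, 2.89 and 17.6 CPM with TLR3 and 1.31, 0.18 and 9.13 CPM with STING (-1.66 ± 0.55, and -2.67 without the STING library of donor 92). SLC7A3, a transporter of cationic amino acids, was at 2.84, 6.10 and 3.60 CPM against 1.28, 1.80 and 2.83 CPM (-1.03 ± 0.34, and -0.62 without the STING library of donor 99). INHBE, the beta E subunit of activins, was at 3.87, 0.836 and 10.7 CPM against 2.90, 0.0513 and 3.97 CPM (-1.28 ± 0.43). The remaining ones were CCL20 and FGF21, given above, YJEFN3 (-1.02 ± 0.36, and -0.62 without the TLR3 library of donor 99), PCDH1 (-1.34 ± 0.58, and -2.13 or -2.38 without the TLR3 or STING library of donor PC) and ENSECAG00000035058 (-1.07 ± 0.46). ITGAL, an integrin chain of leukocytes, had a mean under the level that the rule asked for, with 1.23, 1.11 and 0.499 CPM with TLR3 and 0.427, 0.231 and 0.30 CPM with STING (-1.54 ± 0.46).

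In some groups the sign depended on the donor. Ribosomal protein genes of the cytosol were lower with STING in 67 of 68 in the joint fit (median -0.24), yet 65 of 68 were higher in donor PC, with a mean difference of 0.15 there, -0.56 in donor 99 and -0.28 in donor 92. RPS3 was at 658, 1587 and 1222 CPM with TLR3 and 673, 905 and 932 CPM with STING, so the TLR3 library of donor 99 was the highest of the 6. Without that library the median of the list was -0.044, with 27 of 68 genes higher. Mitosis genes were higher in 40 of 47 (median 0.13), with 7 of 47 higher in donor PC, 46 in donor 99 and 33 in donor 92, and without the STING library of donor 99 the median was -0.21. The surface marker THY1 (CD90) was higher with STING in each donor, at 263, 307 and 552 CPM with TLR3 and 314, 506 and 829 CPM with STING (0.52 ± 0.16).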

How the data were processed

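RNA of equine bone marrow MSC was sequenced as paired-end reads. According to the submitters' processing notes, the authors used Cutadapt 1.12, STAR and HTSeq 0.11.0 with the genome EquCab3.0, and they deposited raw counts per protein coding gene (20881 genes, of which 3970 are listed by Ensembl identifier alone). The strand setting of the counting is not given in the sources used here, so reads of a gene and an overlapping antisense gene cannot be told apart.

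The test took genes whose counts summed to 10 or more over the 9 untreated, TLR3 and STING libraries and was run with edgeR 4.0.16 in R 4.3.3 (TMM, quasi-likelihood test, donor as a block), and p-values were adjusted over all genes by Benjamini-Hochberg. SE is the absolute log2 fold change divided by the square root of F. Differences within donors are on the log2(CPM + 1) scale, which understates low genes. The pairing was set by the donor name in the labels. Same-donor TLR3 and STING libraries deviated together from their group means (r = 0.862 to 0.904 over 11825 genes). For other pairs r was -0.625 to -0.189. Deviations from a group mean cancel within the group, so other pairs must be negative on average once same-donor pairs are positive. No 2 libraries of a group agreed within sampling noise.

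The genes of 34 lists, and the rules for naming single genes, were chosen with earlier results of these data known. Single genes were named by p or by their smallest difference over donors as described in the text, by p or level within a list, or because the study or the pathways single them out; the text gives a part of them. CALHM5, MAP7, SBK2 and TMPRSS6 were named after their values were seen. List results are counts and medians without a test. The scripts were tested on simulated data. Alternatives were DESeq2 1.42.0, other scalings, filters, prior counts, library sets and fits without the block, and each donor or library left out in turn. The CpG and joint cell libraries entered no comparison, and no gene sequences or coordinates were analysed here.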

Additional observations from a re-analysis of the deposited data

How the results depend on the processing

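The main fit held the donor as a block, since the libraries of a donor were paired. No gene had an adjusted p under 0.05 in any edgeR alternative, while DESeq2 gave 10 with the replicate block and 1 without it (DRA). Genes with an unadjusted p of at most 0.05 numbered 384 in the main fit, 36 without the block, 813 with the block in the 6 libraries alone and 46 by DESeq2 without the block, and 144 to 622 when 1 donor or library was left out, the fewest without the STING library of donor 99 and the most without the TLR3 library of donor PC. With library totals they numbered 412, 323 higher and 89 lower. The study's thresholds were passed by 38 genes, by 22 with the block in the 6 libraries, 9 under filterByExpr, 24 without a filter, 6 at a prior count of 2, 15 by DESeq2 without the block, and 24 to 76 with 1 donor or library left out. Differences of at least 1 in all donors numbered 2, or 10 at a pseudocount of 0.1 and 2 to 28 with 1 donor left out, the most without donor PC.

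With 1 donor or library left out, medians ran from 0.045 to 1.58 for antiviral effectors, 0.22 to 0.81 for MHC class II, -0.37 to -0.0597 for collagens and matrix, -0.25 to -0.0092 for metalloproteinases and 0.52 to 1.10 for Wnt antagonists. Signs turned in some of these fits for CXCL10 (-0.0679 to 1.95), TNFSF10 (-0.0894 to 2.25), IRF3 (-0.117 to 0.0035), EIF2AK2 (-0.0211 to 1.30), TRIM25 (-0.0286 to 1.16), CGAS (-0.184 to 1.24), ISG15 (-0.143 to 2.09), IFI27 (-0.0559 to 1.76), SFRP2 (-0.0443 to 0.56) and DKK3 (-0.068 to 0.21). SFRP2 was also at -0.0842 without the block and -0.074 by DESeq2 without it. The cause was not tested. In a fit that leaves out 1 activated library, the other one of that donor is tied in only through the untreated library. The depth limits genes under the floor of 3 counts.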

Other observations

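Of the remaining 13 lists with at least 5 genes tested, medians of the log2 fold change between the agonists ran from -1.03 to 0.14, and 6 of their 227 genes had an unadjusted p of at most 0.05 by edgeR, beside 384 of all 14872 genes. The value of -1.03 came from 6 erythroid and adipocyte markers with at most 2.69 CPM in any of the 6 libraries. Immediate early genes were higher with the STING agonist in 12 of 26 (median -0.018), genes of DNA replication in 26 of 44 (0.036), genes of cholesterol synthesis in 10 of 25 (-0.0089), cell death genes in 18 of 25 (0.08), NF-kB subunits and feedback genes in 16 of 23 (0.063) and genes of the cartilage and bone lineages in 10 of 19 (0.14). Interferon receptors were higher in 3 of 6 (0.014), feedback regulators of interferon signalling in 7 of 14 (0.03), guanylate binding proteins in 4 of 5 (0.068), MSC surface markers in 7 of 10 (0.083), leukocyte and macrophage markers in 7 of 16 (-0.11) and endothelial markers in 5 of 8 (0.10). The 13 mitochondrially encoded genes were listed at 0 in all 6 libraries.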
